A study of Mus musculus with 6 samples.

Results

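Protocadherins were examined in RNA sequencing of mouse lung endothelial cells, with 3 libraries labelled CSE-KO and Cre-positive and 3 labelled WT and Cre-negative. CSE is cystathionine gamma-lyase, the product of the gene Cth. The Cre driver, the deleted exons, the age of the animals and whether the libraries came from separate animals or cultures were not stated in what was used here. The p-values therefore cover the spread among 3 libraries a group and no more, and that spread may be technical. All protein-coding genes of the table whose symbol begins with Pcdh were taken, which gave 49 of 18956 genes. Of these, 39 lay in the beta and gamma clusters (18 beta, 21 gamma) and 10 were single genes. GENCODE mouse release 21 also lists 13 alpha, 4 beta and 2 single protocadherins (Pcdh8 and Pcdh15) that had no row and are not analysed here. The smallest row maximum in the table was 3.

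Protocadherins are cell surface adhesion proteins of the cadherin superfamily. The clustered genes stand in tandem arrays in which each gene has its own promoter and a large variable exon that encodes the extracellular part. Gamma transcripts splice that exon to constant exons shared by the whole array, whereas beta genes have no such constant part. Neurons choose a few of these promoters per cell, with CTCF and cohesin joining them to distant enhancers, and the proteins bind like to like and mark a cell's own branches. The single, or non-clustered, genes are spread over several chromosomes and serve adhesion and sorting in many tissues. Pcdh12 among them encodes the vascular endothelial protocadherin, which is found at endothelial cell contacts.

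Values are normalized counts, read counts scaled per library by the authors and rounded, and are given as mean ± SD (n = 3 libraries per group). Library totals lay between 5698922 and 5765008 in CSE-KO and between 6028772 and 6052275 in WT. The limma test (two-sided) was run on the 13750 genes that reached 10 in 3 or more libraries, and calls were made where p, adjusted by Benjamini-Hochberg across all of them, lay below 0.05. Change was the rule in these libraries, with 77.4% of tested genes called, 38.3% higher and 39.0% lower in CSE-KO. Cth itself had 49, 43 and 63 in CSE-KO and 29, 27 and 26 in WT, so it was higher in the libraries labelled as knockout (log2 fold change 0.89, adjusted p = 0.00079). The deleted exons were not stated, so the labels could not be checked by this gene. Directions are given by the labels, with CSE-KO standing for the libraries so labelled. CSE-KO 1 stood apart from CSE-KO 2 and 3, with a mean squared difference relative to counting noise of 1.65 and 1.94 from them, against 0.863 between CSE-KO 2 and 3 and 0.704 to 0.754 among the WT libraries. Endothelial markers were abundant in both groups, with Pecam1 at 1879 ± 5.86 in CSE-KO and 2314 ± 22.9 in WT. The 10 vascular endothelial markers summed to between 10509 and 11161 in CSE-KO and between 15538 and 15849 in WT. Macrophage markers rose in 7 of 7, with sums from 895 to 1144 in CSE-KO and from 133 to 176 in WT, where Ptprc and Adgre1 were at 0 in every library. Mesothelial markers rose in 4 of 4, with sums from 622 to 709 in CSE-KO and from 188 to 192 in WT. Most of each sum was Krt19, at 524, 563 and 562 in CSE-KO and 188, 182 and 186 in WT. The macrophage genes Ptprc, Adgre1, C1qa, Csf1r and Mpeg1 and the mesothelial genes Msln, Wt1 and Upk3b lay under 10 in every WT library. They passed the minimum only through the CSE-KO libraries, so their calls depend on the group where they were high. The part of these cells in the clustered and single gene results was not tested.

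The clustered genes fell almost as a block, while the single genes moved in both directions. Of the 35 clustered genes tested, 33 were lower in CSE-KO, 2 did not pass and none was called higher, where 39.0% of all tested genes were lower. Their median log2 fold change was −1.54, against 0.00 over all tested genes. At least a 2-fold fall was seen in 29 of the 35, against 12.3% of all tested genes, and none was called higher by 2-fold or more, against 9.93%. Groups did not overlap in 33 of the 35 clustered genes, all with CSE-KO lower (40.4% of all tested genes did this), and in 40 of all 42 protocadherins tested (80.4% of all tested genes in either direction). Among the 7 single genes tested, 4 were lower and 3 higher, with a median of −0.38. Without CSE-KO 1 the clustered genes called lower numbered 34 and 1 was called higher. Low values limit the list, since 7 of the 49 genes did not reach the minimum and are given by their values alone. In 30 of the 35 clustered genes tested every library was at 10 or more, so that they passed in both groups, and 29 of these 30 were lower.

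Summed in each library, the clustered genes came to 2066, 1824 and 1740 in CSE-KO 1 to 3 and to 4640, 4948 and 4902 in WT 1 to 3. The highest CSE-KO library held less than the lowest WT library by more than the spread within either group, and the CSE-KO mean was 38.9% of the WT mean. The single genes came to 4112, 3964 and 4166 in CSE-KO and to 5309, 5455 and 5375 in WT, or 75.9% of WT. Clustered genes thus made up 31.5% ± 1.99 of all protocadherin counts in CSE-KO and 47.3% ± 0.577 in WT. That share is of counts, not of molecules, because the genes differ in length. Sums were not tested, since the genes were chosen with results of these data known. In bulk RNA, fewer cells that express a gene and less of its RNA per cell cannot be told apart.

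**Figure D1:**
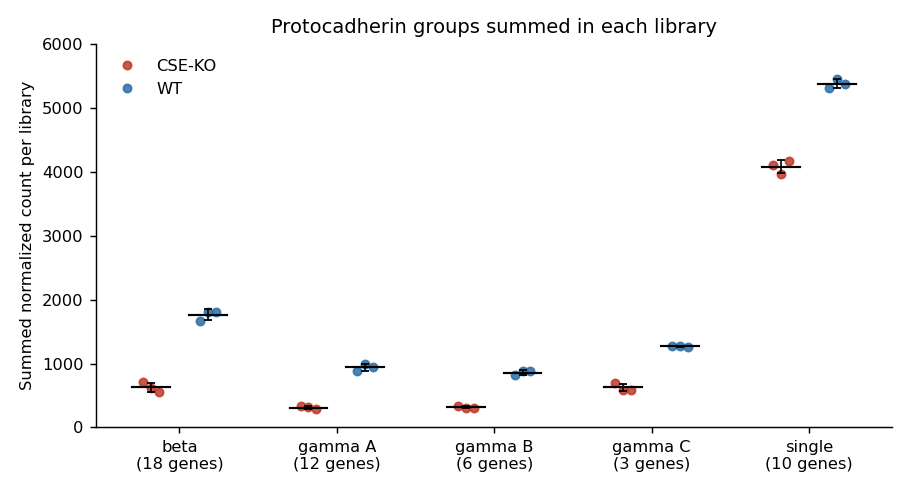
Summed normalized counts of each protocadherin group per library (points), with the mean as a horizontal line and the SD of 3 libraries as a vertical bar, CSE-KO left of WT. The beta genes sum to 625.0 in CSE-KO and 1761 in WT, and the 10 single genes to 4081 in CSE-KO and 5380 in WT, with no overlap between the groups in any of the 5 sets.

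**Figure D2:**
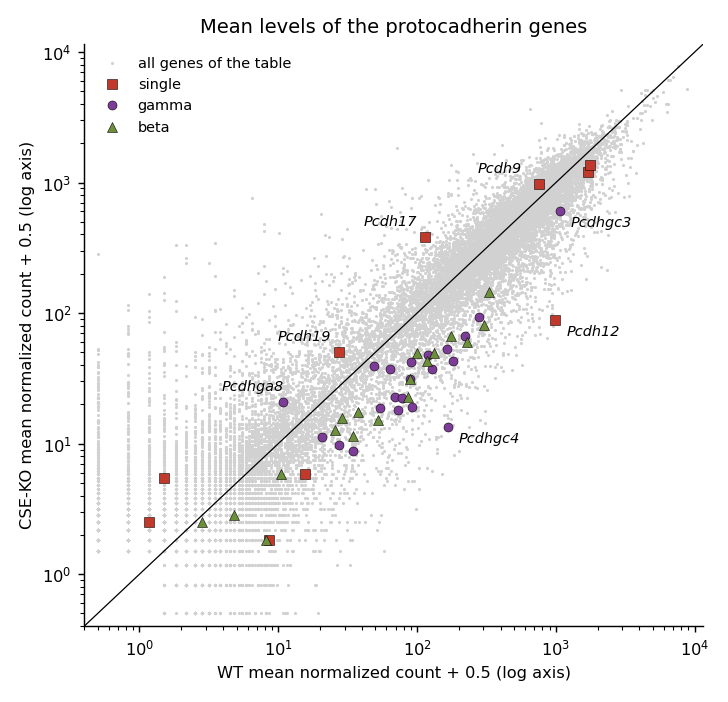
Mean normalized count plus 0.5 of each of the 49 genes in CSE-KO (vertical, log axis) and in WT (horizontal, log axis), over all 18956 genes in grey, with the line of equal values. The beta and gamma genes lie below the line apart from Pcdhga8, whereas Pcdh17, Pcdh9 and Pcdh19 lie above it.

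Within the gamma cluster the 3 genes of the C type, which stand at its end, differed in how far they fell. Pcdhgc3, the broadly expressed gene of the set, had 665, 575 and 576 in CSE-KO 1 to 3 and 1087, 1054 and 1068 in WT 1 to 3. Its groups did not overlap, and the mean was 605 ± 51.7 in CSE-KO and 1069.7 ± 16.6 in WT, or 56.6% of WT (log2 fold change −0.82, SE 0.05, adjusted p = 6e-07). Pcdhgc4, which is needed for the survival of neurons in mice, had 20, 10 and 9 in CSE-KO 1 to 3 and 160, 176 and 160 in WT 1 to 3. At 7.86% of WT it was, with Pcdh12 at 8.95%, one of the deepest falls of the 49 genes by ratio (log2 fold change −3.71, SE 0.27, adjusted p = 9.9e-07), and CSE-KO 1 was again the highest CSE-KO library. Its log2 fold change lay between −4.05 and −3.50 when any 1 library was left out, against −4.13 to −3.37 for Pcdh12, so that the order of these genes was not settled. Pcdhgc5 had 11, 7 and 7 in CSE-KO and 32, 40 and 30 in WT (log2 fold change −1.99, SE 0.26, adjusted p = 3.4e-05). Neither Pcdhgc4 nor Pcdhgc5 reached 10 in every CSE-KO library. Both passed the minimum because of the WT libraries, where they were high. The part of Pcdhgc3 in the clustered sum was 32.3% ± 0.793 in CSE-KO and 22.2% ± 1.11 in WT. Without Pcdhgc3 the clustered sum in CSE-KO was 33.8% of that in WT.

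Of the 12 gamma A genes, 10 fell, to between 20.4% and 52.5% of WT. Pcdhga6 had 23, 19 and 14 in CSE-KO and 88, 94 and 93 in WT, or 20.4% of WT (log2 fold change −2.29, SE 0.19, adjusted p = 6.6e-07). Pcdhga3 had 47, 51 and 30 in CSE-KO and 178, 183 and 178 in WT, and Pcdhga2 had 22, 14 and 17 in CSE-KO and 57, 79 and 80 in WT. These 3 fell furthest among the A genes, to 20.4% to 24.5% of WT, with wide gaps between the groups. Pcdhga10 had 61, 52 and 46 in CSE-KO and 176, 149 and 167 in WT, and Pcdhga12 had 36, 40 and 35 in CSE-KO and 110, 143 and 131 in WT. Pcdhga11 had 27, 17 and 22 in CSE-KO and 71, 93 and 69 in WT, and Pcdhga5 had 17, 27 and 23 in CSE-KO and 67, 72 and 66 in WT. All 4 were at 28.3% to 32.7% of WT. Pcdhga4 had 14, 23 and 18 in CSE-KO and 52, 46 and 63 in WT. Pcdhga9, with 11, 6 and 11 in CSE-KO and 19, 35 and 27 in WT, and Pcdhga7, with 13, 11 and 8 in CSE-KO and 17, 21 and 23 in WT, had few reads, and the adjusted p of Pcdhga7, 0.0096, was the largest among the clustered genes that fell. Neither gene reached 10 in every CSE-KO library, and both passed the minimum because of the WT libraries.

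The remaining pair of A genes did not pass. Pcdhga1, the first gene of the gamma array, had 45, 36 and 35 in CSE-KO 1 to 3 and 44, 56 and 45 in WT 1 to 3, so that the groups overlapped (log2 fold change −0.32, SE 0.17, adjusted p = 0.1). Pcdhga8 had 12, 23 and 26 in CSE-KO 1 to 3 and 5, 15 and 11 in WT 1 to 3, and its groups overlapped (log2 fold change 1.00, SE 0.42, adjusted p = 0.052). It was the only clustered gene tested with a positive log2 fold change, which ranged from 0.57 to 1.33 as single libraries were left out. Without CSE-KO 1 the adjusted p of Pcdhga8 was 0.0067, and that of Pcdhga1 was 0.038 with a log2 fold change of −0.43. Without WT 2 the adjusted p of Pcdhga8 was 0.021.

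All 6 gamma B genes fell, with a median log2 fold change of −1.45. Pcdhgb2 had 100, 76 and 101 in CSE-KO 1 to 3 and 258, 295 and 281 in WT 1 to 3, and Pcdhgb6 had 62, 75 and 60 in CSE-KO 1 to 3 and 221, 222 and 218 in WT 1 to 3. Pcdhgb6 carried the smallest adjusted p of the clustered genes, 3.8e-08, with a log2 fold change of −1.75. Pcdhgb7 had 61, 35 and 45 in CSE-KO and 108, 125 and 124 in WT, Pcdhgb4 had 38, 33 and 21 in CSE-KO and 92, 79 and 92 in WT, and Pcdhgb1 had 38, 42 and 45 in CSE-KO and 79, 92 and 100 in WT. The groups stood apart in each of these genes. Pcdhgb5 moved least of the B type, with 34, 42 and 35 in CSE-KO and 56, 68 and 66 in WT, or 58.4% of WT (log2 fold change −0.77, SE 0.15, adjusted p = 0.00069). Pcdhgb8, annotated as a polymorphic pseudogene and therefore not among the 49, had 6, 5 and 5 in CSE-KO and 10, 20 and 10 in WT (log2 fold change −1.17, adjusted p = 0.012). Pcdhgb8 passed the minimum only through the WT libraries, so its call depends on the group where it was high.

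Gamma genes overlap in the annotation, which bears on these values. Between 2116 and 3157 exonic bases of each gamma gene, or 31.5% to 66.8% of its exons, are shared with other genes on the same strand, among them the other gamma genes. How the counting treated reads in shared exons is not stated in the sources used. The lowest value of any protein-coding gamma gene was 11, 6 and 7 in CSE-KO 1 to 3 and 5, 15 and 11 in WT 1 to 3. Pcdhgb8, which shares exons with them, had 6, 5 and 5 in CSE-KO and 10, 20 and 10 in WT. In each library the lower of these values is the most that shared reads credited to every gamma gene can have added. That bound is a large part of the value of low genes such as Pcdhga7 in most libraries. Whether shared reads were credited to some gamma genes and not to others was not tested. On the opposite strand, the lncRNA BC037039 overlaps exons of Pcdhgc3 and had 62.0 ± 9.54 in CSE-KO and 121.7 ± 2.89 in WT. The kit marks strand per the labels, but whether the counting used it is not given, so reads of this pair may be mixed. The same holds for the lncRNA Gm26672, which overlaps exons of Pcdhga10, Pcdhga11, Pcdhga12 and Pcdhgb7 and had 11, 13 and 11 in CSE-KO and 13, 13 and 22 in WT. Genes annotated on the opposite strand also overlap exons of Pcdhga1 (Gm37118) and of Pcdhga7 and Pcdhga8 (Gm37165), and these were not analysed here.

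The beta genes, which each consist of little more than the variable exon, fell in all 14 members tested. The median log2 fold change was −1.44, with a range from −2.02 to −0.89. Their adjusted p lay between 1.7e-07 and 0.0044. Pcdhb17 had 139, 156 and 135 in CSE-KO 1 to 3 and 301, 327 and 366 in WT 1 to 3, and Pcdhb22 had 99, 73 and 69 in CSE-KO 1 to 3 and 305, 304 and 304 in WT 1 to 3. These were the beta genes with the most reads, at 43.3% and 26.4% of WT. Pcdhb16 had 75, 50 and 55 in CSE-KO and 224, 234 and 226 in WT, Pcdhb18 had 75, 65 and 60 in CSE-KO and 154, 189 and 182 in WT, and Pcdhb20 had 52, 51 and 44 in CSE-KO and 122, 143 and 128 in WT. The groups did not overlap in any of these genes. Pcdhb5 had 50, 38 and 39 in CSE-KO and 114, 122 and 114 in WT, Pcdhb19 had 35, 30 and 27 in CSE-KO and 96, 82 and 86 in WT, and Pcdhb21 had 34, 19 and 14 in CSE-KO and 88, 80 and 90 in WT. Pcdhb21 had the lowest log2 fold change of the beta set (log2 fold change −2.02, SE 0.28, adjusted p = 0.00013), and 9.67% of its exonic bases are shared with Pcdhb22.

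The remaining beta genes tested went the same way. Pcdhb14 had 48, 53 and 46 in CSE-KO and 83, 107 and 110 in WT, and Pcdhb15 had 18, 11 and 15 in CSE-KO and 44, 57 and 54 in WT. Pcdhb13 had 12, 10 and 11 in CSE-KO and 30, 37 and 35 in WT, and Pcdhb9 had 22, 16 and 13 in CSE-KO and 32, 44 and 36 in WT. Pcdhb15 fell furthest of these, to 28.4% of WT, and the groups overlapped in none. Pcdhb7, with 20, 13 and 13 in CSE-KO and 28, 30 and 27 in WT, and Pcdhb4, with 16, 11 and 10 in CSE-KO and 21, 25 and 30 in WT, had few reads, and both lost their call when the WT libraries were counted as 1 sample (adjusted p = 0.069 for Pcdhb7 and 0.052 for Pcdhb4). The 4 beta genes below the minimum were not tested. Pcdhb2 had 1, 1 and 2 in CSE-KO and 10, 5 and 8 in WT, Pcdhb3 had 8, 7 and 1 in CSE-KO and 6, 18 and 6 in WT, Pcdhb8 had 1, 4 and 1 in CSE-KO and 3, 4 and 0 in WT and Pcdhb10 had 4, 2 and 1 in CSE-KO and 2, 3 and 8 in WT. The groups of Pcdhb2 did not overlap, and those of the other three did. Beta genes are near copies of each other, and how reads that match several copies were treated is not given, so values of single beta genes are less certain than those of the whole set. As a set the beta genes summed to 709, 610 and 556 in CSE-KO 1 to 3 and to 1663, 1811 and 1810 in WT 1 to 3, or 35.5% of WT.

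Within the CSE-KO group, library 1 held the top value in 23 of the 35 clustered genes tested (12 of 14 beta and 11 of 21 gamma genes) and the bottom value in 5. How often it did so over all tested genes was not counted, so this is not shown to be particular to the clustered genes. The clustered sum was lower in CSE-KO by a log2 ratio of −1.44 without CSE-KO 1 and of −1.36 with it.

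Falls were found along the whole length of the array. The beta and gamma genes span 547.1 kb of chromosome 18 (mm10, 37294812 to 37841873, plus strand). The falls ran from Pcdhb4, 12.6 kb from the first beta gene, to Pcdhgc5 at 524.7 kb, and the deepest clustered fall stood beside one of the smallest at the end of the gamma array, where Pcdhgc3 and Pcdhgc4 start 511.6 and 520.3 kb along. Pcdhga1 begins the gamma array at 367.0 kb, and its neighbours Pcdhga2 and Pcdhga3, at 374.1 and 379.5 kb, fell to 24.5% and 23.7% of WT. Other genes in the neighbourhood went in both directions. Between 100 kb before the first beta gene and 100 kb past Pcdh12, the table held 10 other protein-coding genes, of which 2 rose, 4 fell, 3 did not pass and 1 was not tested. With noncoding genes there were 18, of which the same 2 rose, 7 fell, 5 did not pass and 4 were not tested. Over all tested genes 38.3% rose and 39.0% fell. The noncoding genes that fell were Pcdhgb8, BC037039 and the lncRNA 3222401L13Rik, which lies between the beta and gamma genes on the plus strand (log2 fold change −0.71). Pcdhgb8 among them passed the minimum only through the WT libraries. Taf7, a subunit of the general transcription factor TFIID that lies between the beta and gamma genes on the opposite strand, had 265.0 ± 16.4 in CSE-KO and 150.0 ± 3.00 in WT (log2 fold change 0.82, SE 0.07, adjusted p = 5.7e-07). Fchsd1, downstream of the gamma genes, rose as well (293.7 ± 10.4 in CSE-KO and 142.7 ± 6.51 in WT, log2 fold change 1.04). Arap3, past Fchsd1 on the same side, had 1258, 981 and 969 in CSE-KO and 2612, 2554 and 2555 in WT (log2 fold change −1.28, SE 0.12, adjusted p = 0.00038), a fall within the range of the clustered genes. Dele1, next to Pcdh12, fell by 0.35 on the log2 scale. Diaph1, the next gene past the array, fell by 0.18 on the log2 scale, and the histone deacetylase gene Hdac3 beyond it fell by 0.41. Over chromosome 18 without the protocadherins, 155 of 357 tested genes rose (43.4%) and 127 fell (35.6%).

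**Figure D3:**
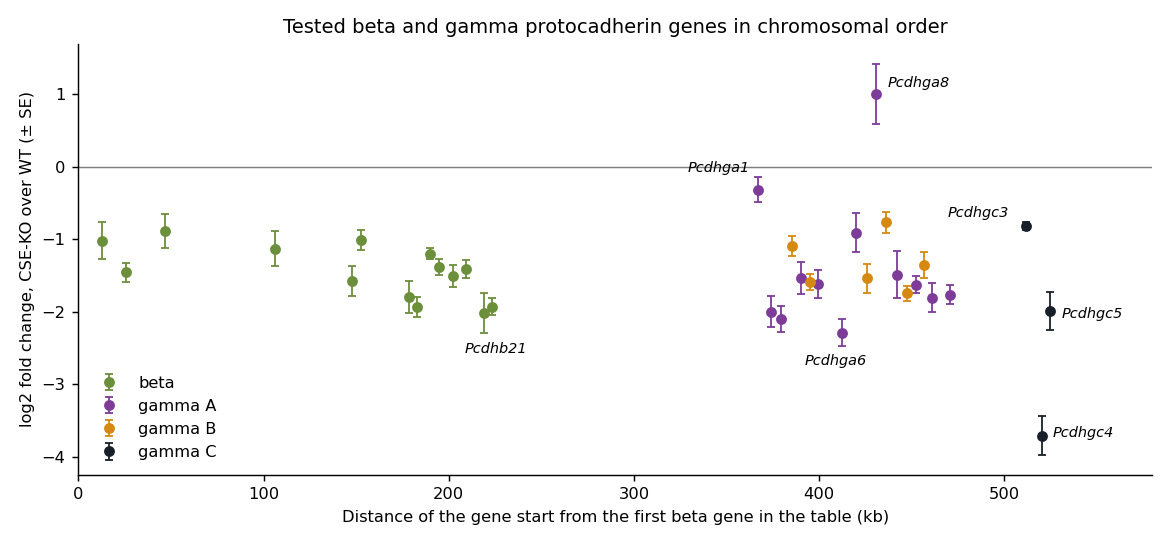
Log2 fold change of CSE-KO over WT with its SE (vertical) for the 35 tested beta and gamma genes against the distance of the gene start from the first beta gene in the table (horizontal, kb), coloured by set. Beta genes lie between −2.02 and −0.89, and Pcdhgc4 (−3.71) and Pcdhga8 (1.00) are the outermost points.

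Among the single genes, Pcdh12 fell furthest. This gene (ENSMUSG00000024440, chromosome 18, 38267089 to 38284402, minus strand) had 154, 59 and 53 in CSE-KO 1 to 3 and 961, 1032 and 979 in WT 1 to 3. The CSE-KO values were far below every WT value but differed among themselves, with CSE-KO 1 above the other two. The mean was 88.7 ± 56.7 in CSE-KO and 991 ± 36.9 in WT, or 8.95% of WT (log2 fold change −3.65, SE 0.47, adjusted p = 0.0019). Its log2 fold change was −4.13 without CSE-KO 1 and −3.37 without CSE-KO 3. Pcdh12 gave 2.17% ± 1.37 of the single-gene counts in CSE-KO and 18.4% ± 0.443 in WT. The endothelial cadherin gene Cdh5 had 2678, 2676 and 2666 in CSE-KO and 2849, 2815 and 2823 in WT (log2 fold change −0.08, adjusted p = 0.0012). The endothelial marker list fell in the same libraries, in 9 of 10 members with a median of −0.68, where 39.0% of all tested genes fell. Log2 fold changes in that list ran from −1.57 for Tek to 0.02 for Emcn, and Cdh5 had the smallest called fall. The part of that list in the fall of Pcdh12 was not tested.

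Pcdh1 and Pcdh7, of the delta-1 subgroup, were abundant and fell by less. Pcdh1, an adhesion protein of airway epithelium and endothelium (chromosome 18, 38185914 to 38212053), had 1246, 1155 and 1208 in CSE-KO 1 to 3 and 1657, 1743 and 1681 in WT 1 to 3. The groups stood well apart, and the mean in CSE-KO was 71.0% of that in WT (log2 fold change −0.49, SE 0.03, adjusted p = 9.2e-08). Pcdh7, a protocadherin whose tail binds protein phosphatase 1 (chromosome 5, 57717967 to 58133230), had 1381, 1287 and 1407 in CSE-KO 1 to 3 and 1765, 1752 and 1800 in WT 1 to 3. That was 76.6% of WT, again with no overlap (log2 fold change −0.38, SE 0.03, adjusted p = 8e-07). With equal library totals, which shift the median of all genes by 0.077, the sum of the single genes still stood lower in CSE-KO (log2 ratio −0.33, against −0.40 as deposited).

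Pcdh17, Pcdh9 and Pcdh19 rose, against 38.3% of all tested genes called higher. Pcdh17, a delta-2 protocadherin that recruits the WAVE actin regulators at axon contacts (ENSMUSG00000035566, chromosome 14, 84443563 to 84539002, plus strand), had 315, 419 and 421 in CSE-KO 1 to 3 and 119, 111 and 109 in WT 1 to 3. Every CSE-KO library was above every WT library, and CSE-KO 1 was the lowest of its group, so that here too it lay nearest WT. The mean was 385 ± 60.6 in CSE-KO and 113 ± 5.29 in WT, a 3.41-fold rise (log2 fold change 1.75, SE 0.11, adjusted p = 3.1e-07), with a log2 fold change from 1.68 to 1.89 as single libraries were left out. Pcdh9, of the delta-1 subgroup (chromosome 14, 93013410 to 93890679), had 950, 985 and 1011 in CSE-KO 1 to 3 and 752, 770 and 754 in WT 1 to 3. That rise was 1.29-fold and larger than the spread in either group (log2 fold change 0.37, SE 0.03, adjusted p = 7.2e-07). Pcdh19, a delta-2 gene on chromosome X whose loss causes an epilepsy in humans (133582860 to 133688987), had 53, 47 and 50 in CSE-KO 1 to 3 and 29, 22 and 29 in WT 1 to 3. Its CSE-KO values were all above its WT values, a 1.88-fold rise (log2 fold change 0.90, SE 0.17, adjusted p = 0.00052). Of the 5 single genes tested outside chromosome 18, these 3 rose and 2 fell (Pcdh7 and Pcdh18). Both single genes on chromosome 18 fell, so falls were found on and off that chromosome.

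**Figure D4:**
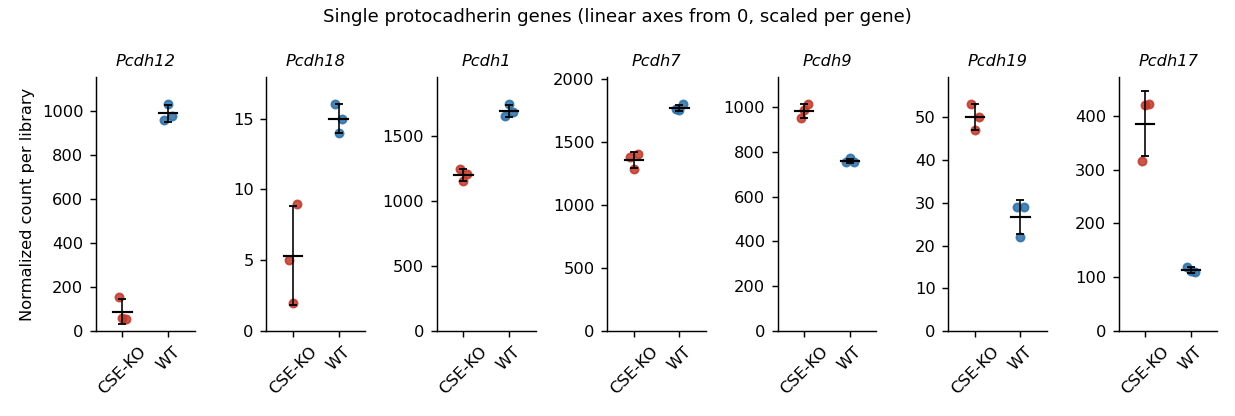
Normalized counts of the 7 single protocadherins tested in each library (points), with the mean (line) and SD of 3 libraries (bar), CSE-KO left of WT, on linear axes from 0 scaled per gene. Pcdh12 is at 53 to 154 in CSE-KO and 961 to 1032 in WT, and Pcdh17 at 315 to 421 in CSE-KO and 109 to 119 in WT.

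The promoters of these 3 genes and of Pcdh7, which fell, are printed to show what the genes that moved apart carry at their start sites. Each is 300 bases, from 250 before to 50 after the annotated start, taken from RefSeq on GRCm38.p6 and written 5′ to 3′ on the gene's strand. Capitals mark CCAAT (the box bound by NF-Y) and GGGCGG (a GC box), searched on both strands along with TATAAA and TGATGNAAT, a form of the ATF4 response element. Coordinates are chr14:84443313-84443612 for Pcdh17, chr14:93890630-93890929 for Pcdh9, chrX:133688944-133689243 for Pcdh19 and chr5:57717831-57718130 for Pcdh7.
Pcdh17: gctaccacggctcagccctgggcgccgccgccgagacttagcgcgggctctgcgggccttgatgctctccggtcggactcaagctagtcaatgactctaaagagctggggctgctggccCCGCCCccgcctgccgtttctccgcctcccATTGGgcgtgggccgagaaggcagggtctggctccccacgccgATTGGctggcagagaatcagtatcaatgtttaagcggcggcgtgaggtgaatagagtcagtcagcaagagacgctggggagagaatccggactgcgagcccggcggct
Pcdh9: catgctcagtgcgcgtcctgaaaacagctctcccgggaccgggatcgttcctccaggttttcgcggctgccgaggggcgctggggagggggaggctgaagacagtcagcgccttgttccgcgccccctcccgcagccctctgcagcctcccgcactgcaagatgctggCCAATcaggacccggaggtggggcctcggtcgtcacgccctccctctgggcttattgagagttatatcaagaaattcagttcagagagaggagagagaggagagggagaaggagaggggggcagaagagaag
Pcdh19: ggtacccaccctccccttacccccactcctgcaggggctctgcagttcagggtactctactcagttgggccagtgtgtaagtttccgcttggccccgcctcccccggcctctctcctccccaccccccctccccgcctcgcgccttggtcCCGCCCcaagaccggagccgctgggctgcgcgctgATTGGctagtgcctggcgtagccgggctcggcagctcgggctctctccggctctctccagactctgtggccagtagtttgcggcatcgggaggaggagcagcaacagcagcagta
Pcdh7: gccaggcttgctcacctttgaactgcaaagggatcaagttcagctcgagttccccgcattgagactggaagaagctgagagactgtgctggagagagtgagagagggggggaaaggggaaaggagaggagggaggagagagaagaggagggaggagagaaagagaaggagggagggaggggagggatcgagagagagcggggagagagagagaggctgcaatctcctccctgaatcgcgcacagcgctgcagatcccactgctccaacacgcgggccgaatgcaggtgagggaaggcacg
The motifs were chosen after these sequences were seen, and the marked matches do not overlap. Pcdh17 holds 2 CCAAT matches, at −101 and −58 from the start, and 1 GGGCGG match. Pcdh9 holds 1 CCAAT match at −82, Pcdh19 holds 1 at −65 with 1 GGGCGG match, and Pcdh7 holds neither motif. CCAAT was present in 6 of the 7 single genes found in the promoter table, including Pcdh18, which fell, and in 37.4% of 32851 promoters. GGGCGG was present in 4 of the 7 and in 35.7% of promoters. TATAAA (13.6% of promoters) and TGATGNAAT (0.965% of promoters) were in none of the 7 windows. A match is a description of these letters and not a sign of binding, and its absence says nothing of a factor. The base composition of the 7 windows was 43.7% to 67.7% G and C, against a median of 52.7% over all promoters.

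The other single genes were low. Pcdh18, a delta-2 gene, had 5, 2 and 9 in CSE-KO and 16, 14 and 15 in WT, and passed the minimum only through the WT libraries, so its call (log2 fold change −1.61, SE 0.46, adjusted p = 0.0074) depends on the group where it was high, and it was lost when the WT libraries were counted as 1 sample (adjusted p = 0.11). Pcdh20 had 1, 1 and 2 in CSE-KO and 7, 9 and 8 in WT, and Pcdh11x had 4, 7 and 4 in CSE-KO and 2, 1 and 0 in WT. The genes 4932441J04Rik and Gm26851 overlap exons of Pcdh7 and of Pcdh19 on the opposite strand, so the same doubt holds for their reads. Neither Pcdh20 nor Pcdh11x was tested, though their groups did not overlap. Pcdh10 had 3, 2 and 1 in CSE-KO and 1, 1 and 0 in WT, with overlap. With no minimum on the values, 39 of the 49 genes were called lower and 4 higher.

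Levels per length gave the order of the genes within a group. On mean normalized counts per kb of exon not shared with another gene, Pcdhgc3 ranked first in both groups, at 179.1 ± 15.3 in CSE-KO and 316.5 ± 4.9 in WT. Pcdh9 had 144.8 ± 4.51 in CSE-KO and 111.8 ± 1.45 in WT, Pcdh1 had 136.8 ± 5.2 in CSE-KO and 192.5 ± 5.04 in WT, and Pcdh7 had 128.1 ± 5.95 in CSE-KO and 167.1 ± 2.34 in WT. In CSE-KO these 3 followed in that order, each mean apart from the next by less than the sum of their SDs. Pcdh12 had 14.6 ± 9.35 in CSE-KO and 163.5 ± 6.09 in WT, and in WT the order after Pcdhgc3 was Pcdh1, Pcdh7, Pcdh12 and Pcdh9, with Pcdh7 and Pcdh12 closer than the sum of their SDs. Pcdh12 thus ranked 13th of 49 in CSE-KO and 4th in WT, and Pcdh17 ranked 7th in CSE-KO and 34th in WT. Among the beta genes Pcdhb17 had the highest level per length, 30.8 ± 2.39 in CSE-KO and 71.1 ± 7.02 in WT. Among gamma A and B genes it was Pcdhgb2, at 33.4 ± 5.12 in CSE-KO and 100.6 ± 6.76 in WT. The lengths include all annotated exon bases not shared with another gene on the strand, used or not. For Pcdhgc3 these were 3380 of 5499 exonic bases. Reads in shared exons may still be in the counts of gamma genes, so their levels and ranks may depend on this choice of length.

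Genes for proteins that organise or silence the clusters' chromatin moved in both directions. Of 18 genes in this list (CTCF, cohesin and its loaders and releasers, Smchd1, the Setdb1 and Trim28 silencing complex and DNA methyltransferases), 12 fell, 5 rose and 1 did not pass, with a median log2 fold change of −0.18, where 39.0% of all tested genes fell and 38.3% rose. Smchd1, which in mice helps silence clustered protocadherin genes, had 928, 879 and 890 in CSE-KO and 1288, 1251 and 1308 in WT (log2 fold change −0.51, SE 0.03, adjusted p = 4.5e-08). Ctcf, whose protein holds the loops between cluster promoters and enhancers, had 725, 699 and 684 in CSE-KO and 831, 871 and 818 in WT (log2 fold change −0.26). The cohesin regulator Pds5a had 1247, 1193 and 1201 in CSE-KO and 1489, 1503 and 1556 in WT (log2 fold change −0.32). None of these CSE-KO values reached a WT value. The DNA methyltransferase Dnmt1 had 666, 560 and 608 in CSE-KO and 1369, 1349 and 1363 in WT (log2 fold change −1.16), and Dnmt3a had 320, 320 and 329 in CSE-KO and 480, 510 and 491 in WT (log2 fold change −0.61). Cohesin subunits moved by little and not alike, with Rad21 at −0.25, Smc1a at −0.19, Smc3 at 0.17 and Stag2 at 0.16 on the log2 scale.

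Genes for proteases that cut protocadherins were also measured. ADAM10 sheds the outer part of gamma protocadherins and the gamma-secretase complex then frees the inner part. Values are given for some of these genes only, so that no count over the list is drawn. Psen2, a catalytic subunit of gamma-secretase, had 155, 140 and 145 in CSE-KO and 409, 421 and 412 in WT (log2 fold change −1.50, SE 0.06, adjusted p = 2.5e-09). Adam10 had 1276, 1189 and 1179 in CSE-KO and 1953, 1962 and 1912 in WT (log2 fold change −0.68), and Adam17, a related sheddase, had 829, 796 and 789 in CSE-KO and 1226, 1223 and 1241 in WT (log2 fold change −0.61). Ncstn, the substrate receptor of the complex, had 892, 847 and 893 in CSE-KO and 1133, 1091 and 1129 in WT (log2 fold change −0.35).

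**Figure D5:**
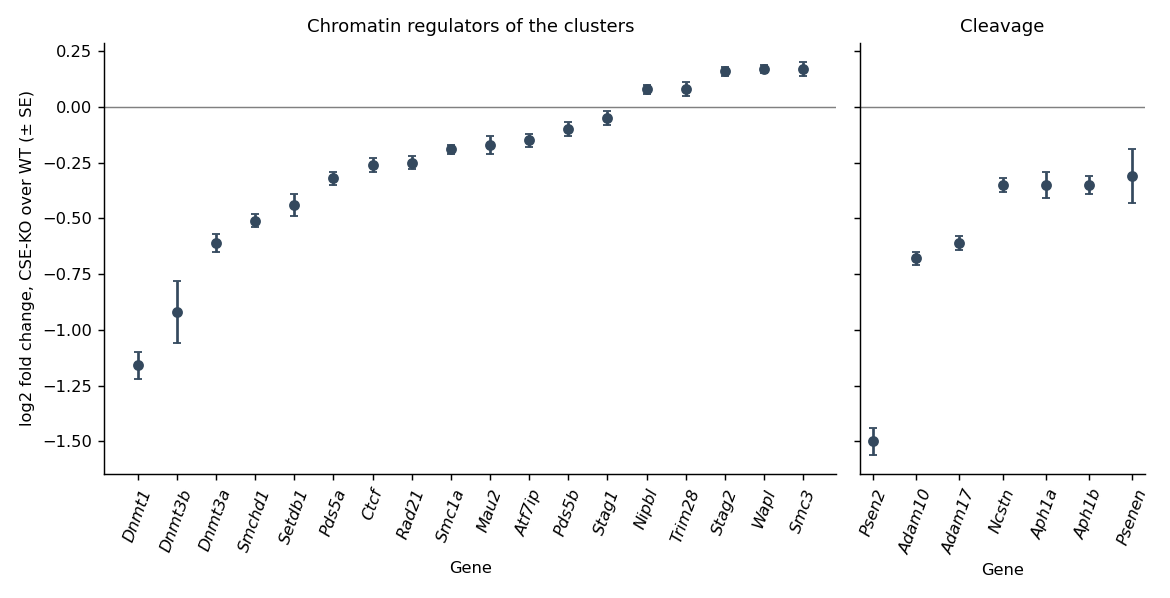
Log2 fold change of CSE-KO over WT with its SE (vertical) for 18 chromatin regulators of the clusters and 7 genes of protocadherin cleavage, ordered by value within each panel. Dnmt1 (−1.16) and Psen2 (−1.50) are the lowest, while Smc3 and Wapl (both 0.17) and Psenen (−0.31) are the highest of their panels.

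Intracellular partners of protocadherins did not move one way. Of 14 tested, 5 rose, 6 fell and 3 did not pass, with a median of −0.07, near the shares over all tested genes of 38.3% higher and 39.0% lower. Cyfip1, a subunit of the WAVE actin complex that binds the tails of several delta-2 protocadherins, had 1247, 1226 and 1227 in CSE-KO and 1745, 1678 and 1674 in WT (log2 fold change −0.46). Its WAVE partners Abi1 and Abi2 moved apart, with Abi1 at 1074, 1084 and 1080 in CSE-KO and 889, 871 and 884 in WT (log2 fold change 0.29) and Abi2 at 293, 292 and 292 in CSE-KO and 400, 446 and 432 in WT (log2 fold change −0.54). The kinase gene Taok2, whose product binds Pcdh8, had 1148, 1033 and 1104 in CSE-KO and 1648, 1600 and 1658 in WT (log2 fold change −0.58). These 4 were named for the smallest adjusted p in the list.

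Other cadherin families also held falls and rises. Classical cadherins and catenins fell in 6 and rose in 2 of 9 tested genes (median −0.15), where 39.0% of all tested genes fell and 38.3% rose. Cdh13, which is anchored to the membrane by a lipid, had 1034, 984 and 990 in CSE-KO and 1539, 1573 and 1582 in WT (log2 fold change −0.64), and the junction protein gene Jup had 1000, 852 and 830 in CSE-KO and 1739, 1733 and 1754 in WT (log2 fold change −0.97). Cdh6 rose, with 195, 243 and 288 in CSE-KO and 71, 55 and 72 in WT (log2 fold change 1.86), and Ctnnb1, the gene for beta-catenin, had 2046, 2001 and 2044 in CSE-KO and 2324, 2293 and 2266 in WT (log2 fold change −0.18). The giant and multi-pass cadherins fell in 5 and rose in 2 of 7 (median −2.26), against the same shares over all tested genes. Dchs1, the ligand of Fat4, had 187, 137 and 139 in CSE-KO and 982, 1055 and 1066 in WT (log2 fold change −2.75, SE 0.13, adjusted p = 3.7e-06). Celsr2, a multi-pass cadherin of planar polarity, had 9, 5 and 7 in CSE-KO and 32, 37 and 35 in WT (log2 fold change −2.26, which is also the median of the list). Celsr2 passed the minimum only through the WT libraries, so its call depends on the group where it was high. Fat4 itself had 1297, 1187 and 1388 in CSE-KO and 1731, 1736 and 1805 in WT (log2 fold change −0.45), whereas Fat1 rose, with 1992, 1847 and 2004 in CSE-KO and 1566, 1569 and 1445 in WT (log2 fold change 0.35). Celsr1 had 345, 174 and 156 in CSE-KO and 2072, 2069 and 2176 in WT (log2 fold change −3.32, SE 0.35, adjusted p = 0.0009). In this list, falls within the range of the clustered protocadherins were thus present in Dchs1 and Celsr1. Both were at 10 or more in every library. The difference between the families was not tested.

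Markers of other cells were measured alongside the protocadherins, where 38.3% of all tested genes rose and 39.0% fell. Of 7 neuronal and glial markers, 3 had a row (Map2, Tubb3 and Stmn2), and 1 of 2 tested rose, with summed values of 528 to 542 in CSE-KO and 290 to 340 in WT, most of it Tubb3. Fibroblast markers, of which 1 of 4 rose, summed to between 1055 and 1356 in CSE-KO and between 1032 and 1099 in WT. Mural markers rose in 2 and fell in 2 of 4 (139 to 153 in CSE-KO and 117 to 127 in WT). Cspg4, which fell, passed the minimum only through the WT libraries, and Myh11, which rose, passed because of the CSE-KO libraries. The calls of Cspg4 and Myh11 thus depend on the group where each was high. Lymphatic markers fell in 3 of 4 and rose in 1, with sums of 4454 to 5789 in CSE-KO and 9926 to 10167 in WT. The epithelial markers found summed to between 18 and 24 in CSE-KO and between 7 and 21 in WT. The part of these cells in the protocadherin values was not tested.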

How the data were processed

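RNA from 6 libraries was sequenced as single-end reads from stranded mRNA libraries, per the labels' protocols. The submitters' processing notes name Trimmomatic 0.39, STAR 2.7.3a, Picard 2.21.7, featureCounts 1.6.5, DESeq2 1.26.0 and the build mm10, with no role or order. The deposited table holds a whole-number score per gene and library, read from its values as a count divided by a size factor and rounded (recomputed factors 1.003 to 1.008). No header or label states the unit. Limma 3.58.1 in R 4.3.3 was run on log2(value + 0.5) with group as the only term, a mean trend and robust variances, after a check on simulated data. Fold changes on this scale are understated for low genes, and ratios of means are given where both means were at least 3. Exon lengths and overlaps come from GENCODE mouse release 21, whose coordinates were the same for all 49 genes.

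The genes and lists were chosen with earlier results of these data known. Values per library are given for every single gene and for every clustered gene with a mean of at least 10 in either group, and for list genes the rule took up to 4 with the smallest adjusted p plus Ctcf, Smchd1, Cdh5 and Adam10. Other named genes (the neighbours on chromosome 18, cohesin subunits, Wapl, Psenen, Celsr1 and the markers) were chosen after their values were seen. Alternatives covered scaling, the minimum, the pseudocount, the variance model, a replicate block, leaving out each library and 3 ways of counting samples or filtering. Some members of the cleavage and marker lists are not reported here, and marker counts leave them out.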

Additional observations from a re-analysis of the deposited data

How the results depend on the processing

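No gene reversed direction under any alternative. Of 656 values of tested genes under alternatives, 646 kept their direction and their side of the threshold, 4 lost the call and 6 gained it. The 4 losses were Pcdhb4, Pcdhb7, Pcdhga7 (adjusted p = 0.089) and Pcdh18, all with WT treated as a single sample, which was chosen after seeing the data and assumes that it varies like the CSE-KO libraries. The number of genes called was 40 as reported, 36 in that fit, between 39 and 42 without any 1 library, 43 of 49 with no minimum, 29 of 29 at a minimum of 50, and 40 with CSE-KO 2 and 3 counted as 1 sample or with a minimum mean of 10, both also added later. Clustered genes called higher numbered 0 as reported and by limma at equal library totals 1, with a pseudocount of 2 also 1, with the replicate block 1, and between 0 and 1 without any 1 library. In each case it was Pcdhga8 (adjusted p = 0.038 with equal totals, 0.047 with the pseudocount and 0.012 with the block, against 0.052). Without adjustment limma also called 1 at the 0.05 threshold, again Pcdhga8. The single-gene sum had a log2 ratio of −0.33 with equal totals. All tested genes called numbered between 8845 and 11859. Replicate numbers did not pair the libraries (correlations of deviations −0.001, 0.020 and 0.011), and the replicate block gave 41 calls, with Pcdhga8 the only change. Values under about 20 carry large counting error, and 7 of the 49 genes were too low to test.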
